A study of Homo sapiens with 16 samples.

Results

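The genes described here encode secreted and membrane-bound proteases that cut the extracellular matrix or shed surface proteins, and the inhibitors that hold them in check. They were taken from a list of 38 symbols, and a gene was kept where a row of the array table carried that symbol alone, with the highest row used where a symbol had several. That gave 36 of the 38 genes among 14040 genes in all: 11 of 13 matrix metalloproteases (MMPs), 5 of 5 inhibitors (TIMP1 to TIMP4 and RECK), 8 of 8 ADAMs, 10 of 10 ADAMTS proteases and 2 of 2 cathepsins. MMP10 and MMP24 were not analysed here.

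The study measured RNA of U-87MG, an established human glioblastoma line, on 16 Affymetrix arrays in 4 groups of 4. Cells received the 0.1% DMSO carrier, 25 µM I3P (indole-3-pyruvate, a keto acid made from tryptophan), 1 µM SR1 (an antagonist of the aryl hydrocarbon receptor, AHR), or 25 µM I3P together with 1 µM SR1. No gene was altered in any group, the line carries its own AHR, and the sources used here do not give the length of treatment. Each group holds biological replicates 1 to 4, and the array titles begin SLI for replicates 1 and 2 and SMI for replicates 3 and 4. All 16 arrays come from the same cell line, so the replicates measure spread between cultures and not between tumours.

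MMPs are zinc proteases that degrade collagens, gelatins and other matrix proteins, and the TIMPs block their active site. ADAMs are mostly membrane-anchored and release growth factors and receptors from the cell surface, while ADAMTS proteases are secreted, carry thrombospondin repeats and process procollagens and proteoglycans. AHR is a ligand-activated transcription factor whose partner-bound form recognises a short GC-rich core in the regulatory DNA of its targets, and gliomas are known for using matrix proteases during invasion.

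The 3 promoters shown belong to ADAMTS18, ADAMTS7 and MMP14, the members whose SR1 arrays lay apart from all DMSO arrays. Each is the 250 bases before the annotated start, 5′ to 3′ on the gene's own strand, from RefSeq (GRCh38.p14); capitals mark a match to the AHR core GCGTG on either strand, which reads CACGC when the match is on the opposite strand. The positions are chr16:77435035-77435284 (minus strand) for ADAMTS18, chr15:78811465-78811714 (minus strand) for ADAMTS7 and chr14:22836335-22836584 (plus strand) for MMP14.
ADAMTS18: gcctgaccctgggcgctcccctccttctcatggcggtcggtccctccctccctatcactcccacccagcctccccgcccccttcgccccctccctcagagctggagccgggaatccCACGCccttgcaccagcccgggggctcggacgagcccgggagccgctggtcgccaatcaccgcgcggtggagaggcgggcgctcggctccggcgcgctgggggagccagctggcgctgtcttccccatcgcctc
ADAMTS7: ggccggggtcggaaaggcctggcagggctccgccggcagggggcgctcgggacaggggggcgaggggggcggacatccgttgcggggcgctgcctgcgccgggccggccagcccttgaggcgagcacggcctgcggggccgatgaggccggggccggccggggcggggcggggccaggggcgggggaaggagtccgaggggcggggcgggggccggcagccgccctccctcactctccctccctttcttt
MMP14: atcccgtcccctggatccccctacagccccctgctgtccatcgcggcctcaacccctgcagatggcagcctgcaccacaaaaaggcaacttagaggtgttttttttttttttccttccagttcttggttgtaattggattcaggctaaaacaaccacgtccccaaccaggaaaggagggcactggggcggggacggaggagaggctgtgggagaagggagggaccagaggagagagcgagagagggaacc

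The ADAMTS18 window held 1 match to the core, starting 134 bases before the gene's start, and those of ADAMTS7 and MMP14 held 0. The same core occurred in 11313 of 35116 promoter windows of this length (32.2%), and in 9 of the 22 windows available for 21 of the 36 members. The AP-1 motif TGACTCA, known from MMP promoters, lay in 1 of the 22 windows, that of MMP7, against 4.20% of all windows. Among the MMPs, only MMP7, MMP14 and MMP15 had a window. MMP1, MMP3, MMP9 and MMP13 had none, so the motif was not looked for there. A match describes the letters only.

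Array medians ran from 8.26 to 8.30 on the log2 scale, and values from 2.13 to 13.8. The I3P array of replicate 1 stood apart: its correlation with the other arrays was 0.877 to 0.910, against 0.921 to 0.979 among the others, so the I3P differences printed for single members are given with and without it. CYP1B1, a textbook AHR target that is no member, read 10.7 to 10.9 on the DMSO arrays, 11.01 to 11.34 with I3P, 8.17 to 8.40 with SR1 and 10.5 to 11.1 with both compounds. Of the other AHR reference genes, also no members, AHRR read 8.36 to 8.62, 8.32 to 8.96, 6.72 to 7.31 and 8.08 to 8.81 in that order. TIPARP read 10.37 to 10.84, 10.99 to 11.34, 9.02 to 9.63 and 10.15 to 11.38. CYP1A1 read 6.16 to 7.68, 5.22 to 7.91, 3.97 to 5.38 and 5.17 to 7.99. The I3P arrays of AHRR and CYP1A1 overlapped their DMSO arrays. Of 8 glioma or astrocyte markers measured, VIM read 12.8 (percentile 99.8 of all genes), CHI3L1 11.2 (percentile 96.5), CD44 10.04 (percentile 86.2), SLC1A3 8.53 (percentile 55.4), AQP4 8.04 (percentile 41.2), GFAP 7.92 (percentile 37.2), ALDH1L1 7.65 (percentile 27.3) and NES 7.54 (percentile 22.8). The list's group means were 9.16 to 9.27. Marker lists of other cell types had group means of 7.79 to 7.94 (epithelial, 3 of 6 measured), 7.99 to 8.09 (haematopoietic, 4 of 7), 7.31 to 7.66 (endothelial, 2 of 5), 8.27 to 8.36 (neuronal, 4 of 6) and 9.17 to 9.39 (mesenchymal, 8 of 8).

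ADAMTS18, a secreted protease with few known substrates, was lower with SR1 and back near the carrier level when I3P was added to SR1. The DMSO arrays of replicates 1 to 4 read 7.42, 7.66, 7.30 and 7.18 on the log2 scale. The SR1 arrays read 6.42, 6.20, 6.35 and 6.74. Every SR1 array was below every DMSO array. The I3P arrays read 7.37, 7.80, 7.49 and 7.21, and the arrays with both compounds read 7.16, 7.32, 7.46 and 7.30. Those 8 arrays overlapped the 4 DMSO arrays, and SR1 alone lay below all of them.

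The mean fell by 0.96 log2 units from DMSO to SR1 (SE 0.15, 95% interval -1.28 to -0.65, n = 4 each), which is 1.95-fold lower (limma over all 14040 genes with Benjamini-Hochberg adjustment, adjusted p = 0.0089). Within replicate numbers the differences were -1.004, -1.46, -0.94 and -0.44, so the fall was deepest in replicate 2 and shallowest in replicate 4. The mean difference was -1.23 over the SLI arrays and -0.69 over the SMI arrays. ADAMTS18 was put forward with earlier results of these data known, so this test describes the gene and is not independent evidence for it. In whole cultures, less RNA per cell and fewer cells that express the gene cannot be told apart.

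Adding I3P to SR1 raised ADAMTS18 by 0.88 log2 units over SR1 alone (SE 0.15, 95% interval 0.57 to 1.196, adjusted p = 0.021, limma), a 1.84-fold rise. The differences within replicate numbers were 0.74, 1.12, 1.10 and 0.57, and the arrays of these groups did not overlap. This comparison uses the same 4 SR1 arrays as the comparison with DMSO, so the values stand side by side and do not support each other. The exact two-sided permutation test over samples gave p = 0.0286 for each of these comparisons, the smallest value that 70 splits of 4 against 4 allow.

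ADAMTS18 differed by 0.08 log2 units between I3P and DMSO, with a 95% interval of -0.24 to 0.39 (exact permutation p = 0.657), and by 0.11 without the I3P array of replicate 1. Cells with both compounds differed from carrier cells by -0.08 (95% interval -0.40 to 0.23, exact permutation p = 0.6) and from I3P cells by -0.16 (95% interval -0.47 to 0.15, exact permutation p = 0.343), or -0.19 without that array. The I3P response with SR1 present exceeded that without it by 0.80 log2 units (SE 0.21, 95% interval 0.36 to 1.25), in 4 of 4 replicate numbers, with differences of 0.80, 0.98, 0.91 and 0.53. In the fit over all genes that contrast had an unadjusted p = 0.0014 and adjusted p = 1.0, so it did not pass (limma). Without that I3P array it was 0.77.

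The ADAMTS18 signal sat low on the scale of these arrays. Its mean over 16 arrays lay at percentile 8.47 of all genes, and 0.335% of genes had a mean below its SR1 mean. No detection call was used here, so how far the SR1 values lie above background is unknown. The call against DMSO was lost without DMSO replicate 2 (adjusted p = 0.055, limma), and that against SR1 without any of SR1 replicates 1, 2 and 3 or I3P+SR1 replicates 2, 3 and 4 (adjusted p = 0.074 to 0.12).

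**Figure D1:**
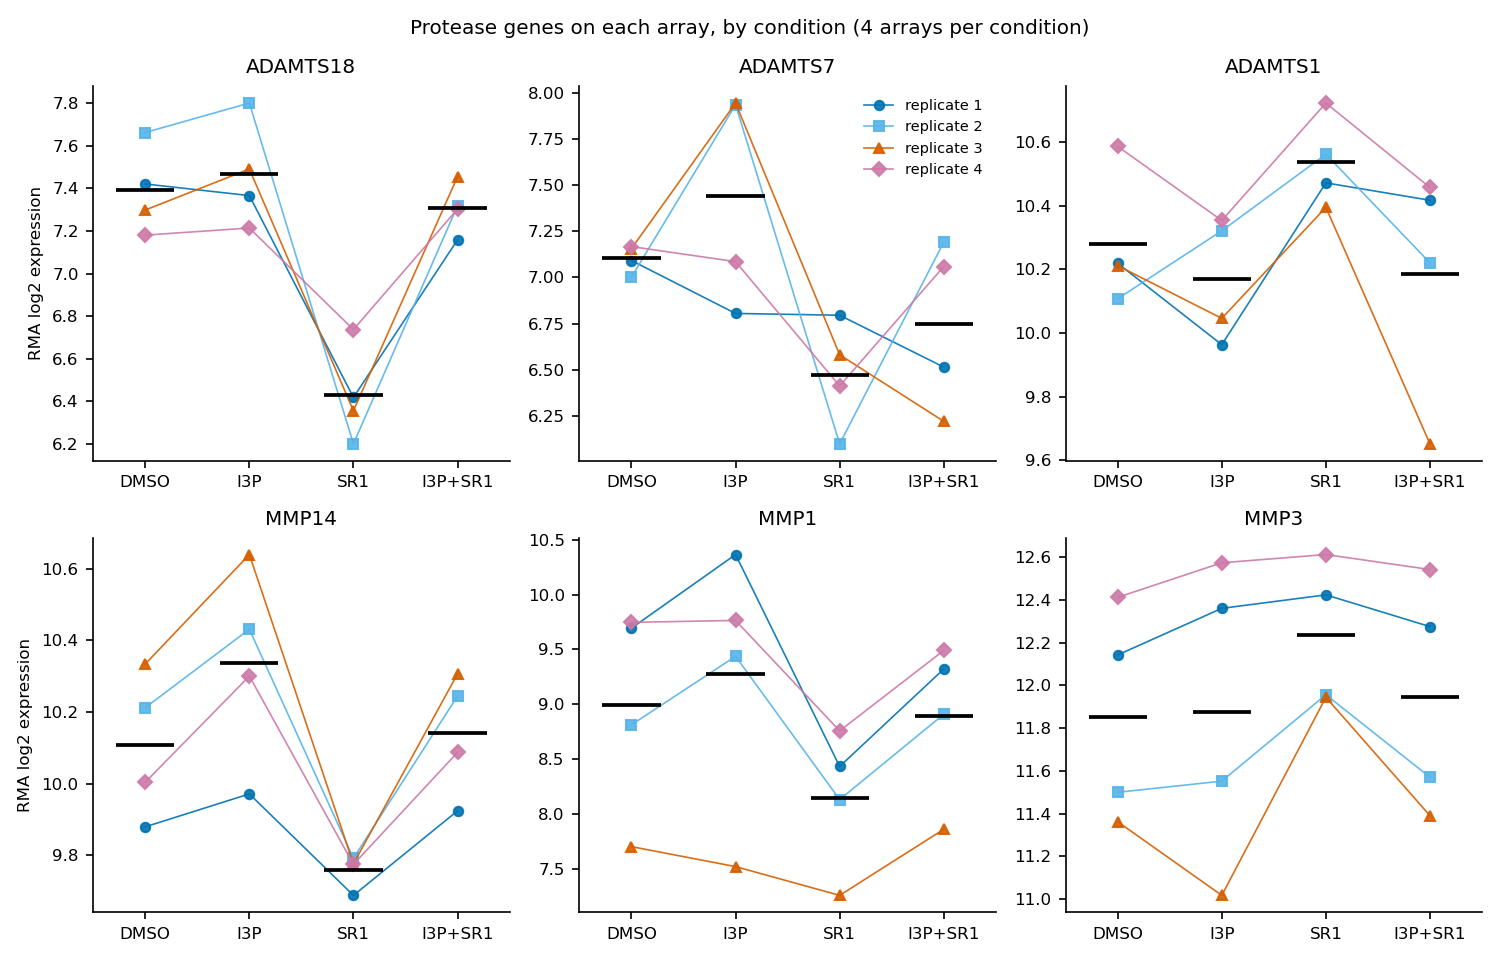
Log2 signal (vertical axis) of ADAMTS18, ADAMTS7, ADAMTS1, MMP14, MMP1 and MMP3 on all 16 arrays, by group; points are arrays, lines join arrays of the same replicate number, and bars are group means of 4 arrays. The 4 SR1 points of ADAMTS18 lie between 6.20 and 6.74, below all 12 other points, while replicate 3 is the lowest MMP1 point and replicate 4 the highest MMP3 point in every group.

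Of the 36 genes, ADAMTS18 was the only member called lower by SR1, in a comparison that called 0.164% of all genes in either direction, and the only member called higher when I3P was added to SR1, where 0.114% of all genes were called (limma). Members with an unadjusted p under 0.05 numbered 3 for SR1 against DMSO, all lower, where 1.65% of all genes were lower at that p. They numbered 2 for I3P with SR1 against SR1, both higher, where 2.09% of all genes were. With the replicate number as a block, members at that p in either direction numbered 7 and 6 in these comparisons (limma). By class they were 3 and 3 MMPs, 3 and 2 ADAMTS genes, and 1 and 1 cathepsins. Beside them stood 866 and 1061 of 14040 genes. The median change over the 36 genes was 0.0054 log2 units for SR1 against DMSO and -0.014 for I3P with SR1 against SR1. Over all genes it was 0.0025 and -0.0092. Of the 36 genes, 18 were higher and 18 lower with SR1.

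**Figure D2:**
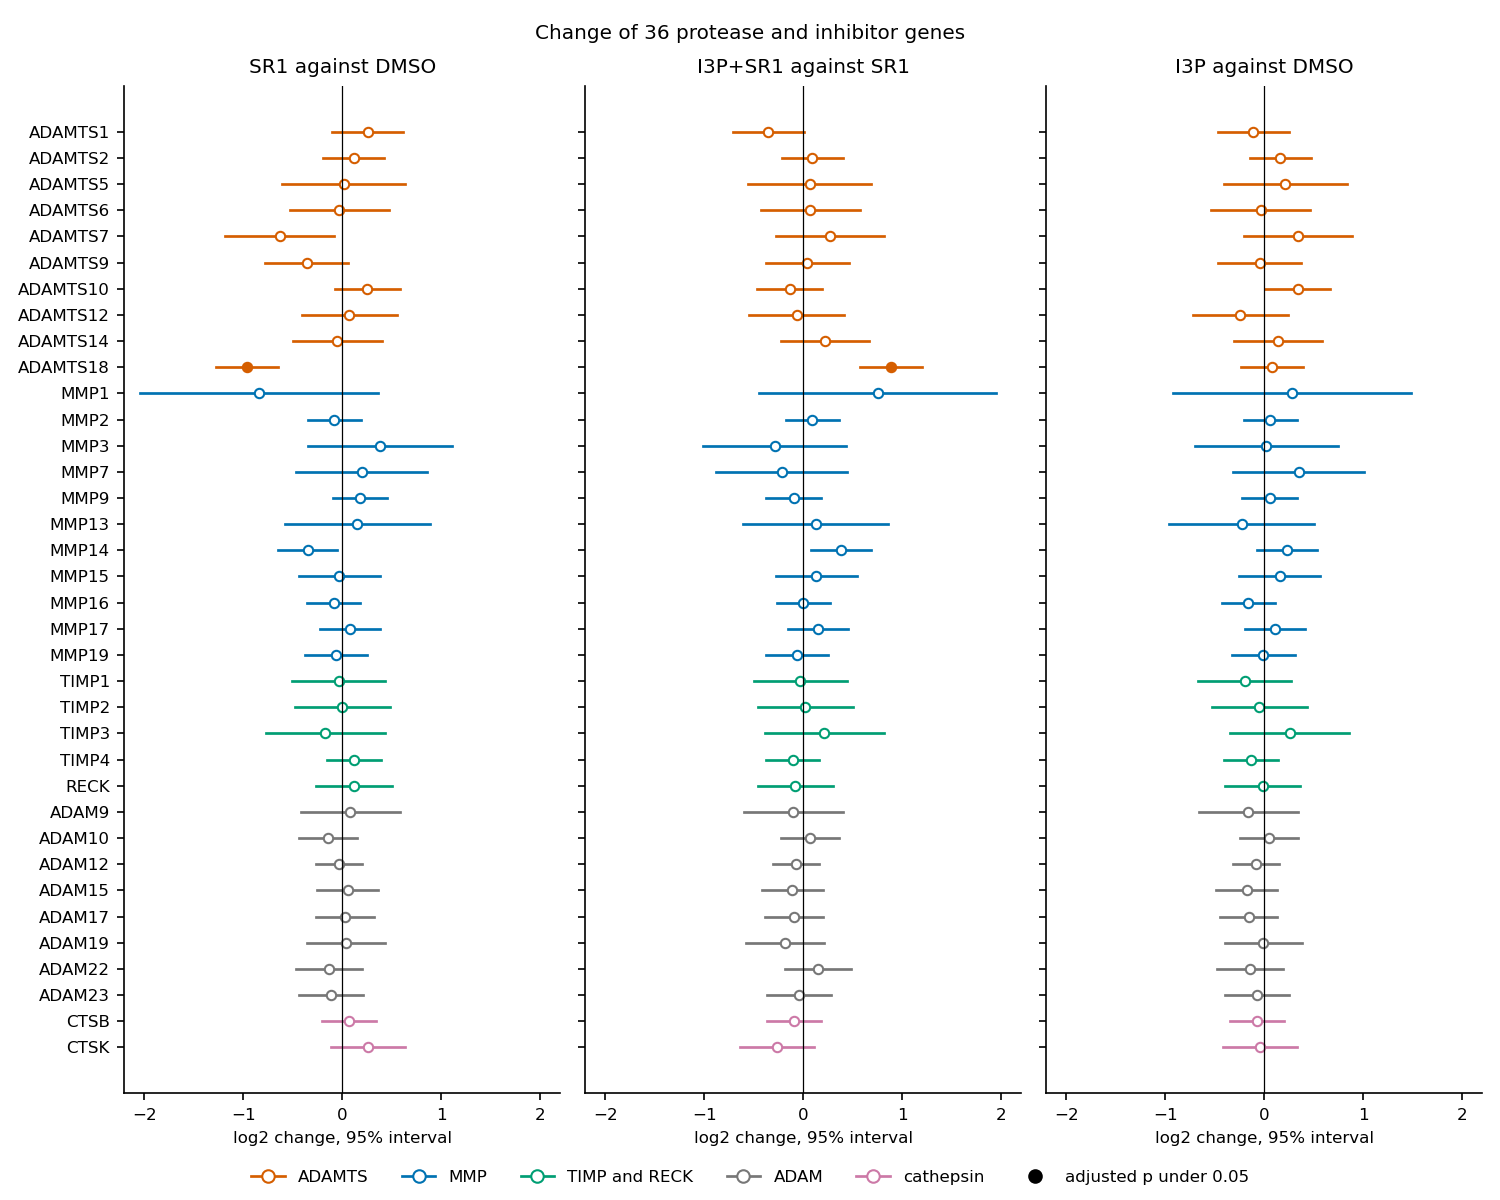
Log2 change (horizontal axis) with its 95% interval for each of the 36 genes, by class, for SR1 against DMSO, I3P with SR1 against SR1, and I3P against DMSO; filled points have an adjusted p under 0.05. ADAMTS18 is filled at -0.96 in the first panel and at 0.88 in the second, and no other point is filled.

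ADAMTS7, which cleaves the cartilage oligomeric matrix protein, had the next lowest SR1 difference among the ADAMTS genes. Its arrays read 7.09, 7.002, 7.16 and 7.17 with DMSO, 6.79, 6.10, 6.58 and 6.41 with SR1, 6.80, 7.94, 7.95 and 7.09 with I3P, and 6.51, 7.19, 6.22 and 7.06 with both. The SR1 arrays did not overlap the DMSO arrays, and the I3P arrays spread over more than a log2 unit. The ADAMTS7 signal was low, with its mean over all arrays at percentile 3.57 of all genes. Only 0.377% of genes had a mean below its SR1 mean. How far its SR1 values lie above background is unknown, as for ADAMTS18. The difference between SR1 and DMSO was -0.63 (SE 0.26, unadjusted p = 0.025, adjusted p = 1.0, limma), and it was negative in 4 of 4 replicate numbers. ADAMTS7 overlapped between SR1 alone and both compounds, with a difference of 0.28; whether this differs from the ADAMTS18 response was not tested.

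Cells with both compounds read 0.70 log2 units lower in ADAMTS7 than I3P cells (difference -0.70, SE 0.26, unadjusted p = 0.015, adjusted p = 0.999, limma), again in 4 of 4 replicate numbers although the groups overlapped. Without the I3P array of replicate 1 that difference was -0.91 and the difference between I3P and DMSO was 0.55 in place of 0.34.

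ADAMTS1, a proteoglycan-cutting family member, had differences of the opposite sign. It read 10.22, 10.11, 10.21 and 10.59 with DMSO, 10.47, 10.56, 10.39 and 10.72 with SR1, 9.96, 10.32, 10.05 and 10.35 with I3P, and 10.42, 10.22, 9.65 and 10.46 with both. SR1 was above DMSO in 4 of 4 replicate numbers, by 0.26 on average, and the combination was below SR1 in 4 of 4, by 0.35 on average (difference -0.35, SE 0.17, unadjusted p = 0.053, limma). The groups overlapped in both comparisons, and neither difference passed the test, with or without the replicate number as a block.

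ADAMTS10, which binds fibrillin microfibrils, was the only member whose I3P arrays lay apart from its DMSO arrays, a separation in the higher direction that 0.99% of all genes showed. Its arrays read 7.75, 7.98, 8.03 and 7.62 with DMSO and 8.41, 8.13, 8.06 and 8.14 with I3P, a difference of 0.34 (SE 0.16, unadjusted p = 0.043, adjusted p = 0.999, limma). The SR1 arrays read 7.74, 8.35, 8.17 and 8.13, and those with both compounds 7.62, 8.17, 7.90 and 8.17. Its highest value is on the I3P array of replicate 1, without which the difference was 0.27 (unadjusted p = 0.12, limma).

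The remaining ADAMTS genes overlapped between SR1 and DMSO. With SR1 against DMSO the difference was 0.12 for the procollagen peptidase ADAMTS2 and -0.05 for its relative ADAMTS14, 0.01 for the aggrecanase ADAMTS5, -0.03 for ADAMTS6, -0.36 for the proteoglycanase ADAMTS9 and 0.07 for ADAMTS12, beside 0.25 for ADAMTS10. When I3P was added to SR1, these genes differed from SR1 alone by 0.09 (ADAMTS2), 0.22 (ADAMTS14), 0.07 (ADAMTS5), 0.07 (ADAMTS6), 0.04 (ADAMTS9), -0.14 (ADAMTS10) and -0.07 (ADAMTS12). For I3P against DMSO the values were 0.16 for ADAMTS2, 0.14 for ADAMTS14, 0.22 for ADAMTS5, -0.03 for ADAMTS6, -0.04 for ADAMTS9, -0.24 for ADAMTS12 and -0.11 for ADAMTS1. Without the I3P array of replicate 1 they were 0.196 for ADAMTS2, 0.101 for ADAMTS14, 0.13 for ADAMTS5, -0.04 for ADAMTS6, -0.12 for ADAMTS9, -0.06 for ADAMTS12 and -0.04 for ADAMTS1. None of these passed the test. ADAMTS14 and ADAMTS2 also had a low signal, with means over all arrays at percentiles 4.63 and 5.32 of all genes.

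Among the MMPs, MMP14, the membrane-anchored protease that activates pro-MMP2, was, like ADAMTS18, lowest with SR1. It read 9.88, 10.21, 10.33 and 10.004 with DMSO and 9.69, 9.79, 9.78 and 9.77 with SR1. With I3P it read 9.97, 10.43, 10.64 and 10.30, and with both compounds 9.92, 10.24, 10.31 and 10.09. The SR1 arrays lay below every array of the other 3 groups and were the most tightly grouped of the 4 (SD 0.047, n = 4, against 0.17 to 0.28).

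MMP14 differed by -0.35 between SR1 and DMSO (SE 0.14, unadjusted p = 0.025, adjusted p = 1.0, limma) and by 0.38 between the combination and SR1 (SE 0.14, unadjusted p = 0.016, adjusted p = 1.0). With the replicate number as a block the unadjusted p values were 0.0019 and 0.00098 and the adjusted ones 0.21 and 0.12 (limma), so neither passed. I3P without SR1 was above DMSO in 4 of 4 replicate numbers, by 0.23 on average (unadjusted p = 0.13), and by 0.35 without the I3P array of replicate 1. MMP2, the gelatinase that MMP14 activates, stayed between 12.4 and 13.0 on all 16 arrays and differed by -0.08 between SR1 and DMSO. Arrays apart from DMSO in the lower direction, as for MMP14, ADAMTS7 and ADAMTS18 with SR1, were seen for 1.23% of all genes, and arrays above SR1 with no overlap, as for MMP14 and ADAMTS18, for 1.53%.

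MMP1, the interstitial collagenase, had a larger difference than MMP14 and a far larger spread. It read 9.69, 8.81, 7.70 and 9.75 with DMSO and 8.43, 8.13, 7.26 and 8.76 with SR1. With I3P it read 10.36, 9.44, 7.52 and 9.76, and with both compounds 9.32, 8.91, 7.86 and 9.49. Replicate 3 was lowest in every group, and the groups overlapped. The difference between I3P and DMSO was 0.28 with the I3P array of replicate 1 and -0.08 without it. SR1 was below DMSO, and the combination above SR1, in 4 of 4 replicate numbers.

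The mean MMP1 difference was -0.84 between SR1 and DMSO (SE 0.57, 95% interval -2.05 to 0.36, adjusted p = 1.0) and 0.75 between the combination and SR1 (SE 0.57), and neither passed (limma). With the replicate number as a block the unadjusted p values were 0.0011 and 0.0026 and the adjusted ones 0.15 and 0.22. With the block and without the I3P array of replicate 1, a setting chosen after seeing the data, MMP1 passed for SR1 against DMSO (adjusted p = 0.042) and MMP14 for the combination against SR1 (adjusted p = 0.047). Members called then numbered 2 in each comparison, among 80 and 104 of all genes.

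MMP3, the stromelysin that activates pro-MMP1, differed from DMSO in the direction opposite to MMP1 in each replicate number with SR1. It read 12.14, 11.50, 11.36 and 12.41 with DMSO and 12.42, 11.96, 11.94 and 12.61 with SR1. With I3P it read 12.36, 11.55, 11.02 and 12.57, and with both compounds 12.27, 11.57, 11.39 and 12.54. SR1 was above DMSO in 4 of 4 numbers, by 0.38 on average (SE 0.34, unadjusted p = 0.28, limma), and the combination was below SR1 in 4 of 4, by 0.29 on average. With the replicate number as a block the unadjusted p values were 0.0085 and 0.034 and the adjusted ones 0.43 and 0.61 (limma). Neither difference passed.

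No other MMP had SR1 arrays apart from its DMSO arrays. MMP9, the second gelatinase, was above DMSO with SR1 in 4 of 4 numbers by 0.18 on average. MMP7, the small matrilysin, read 8.81, 8.56, 8.49 and 9.39 with DMSO and 10.08, 8.61, 8.71 and 9.24 with I3P, and its mean difference of 0.35 was 0.04 without the I3P array of replicate 1. The third collagenase, MMP13, read 5.57, 6.72, 6.75 and 6.83 with I3P and 7.28, 6.75, 6.52 and 7.34 with both compounds, a difference of 0.50 (unadjusted p = 0.16) that was 0.21 without that array. The MMP13 signal was the lowest of the 36 genes, with its mean over all arrays at percentile 1.503 of all genes. The mean of MMP9 lay at percentile 9.017. How far the MMP13 and MMP9 values lie above background is unknown, as for ADAMTS18. For SR1 against DMSO, MMP15, MMP16, MMP17 and MMP19 differed by -0.03, -0.08, 0.08 and -0.06.

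None of the 5 inhibitors was called in any of the 6 contrasts. TIMP3, the matrix-bound inhibitor that also blocks ADAM17, differed by -0.17 for SR1 against DMSO, by 0.21 for the combination against SR1 and by 0.26 for I3P against DMSO, or -0.05 without the I3P array of replicate 1. It read 9.70, 9.11, 8.90 and 9.09 with DMSO and 9.55, 9.001, 8.75 and 8.82 with SR1, lower in 4 of 4 replicate numbers with overlapping groups. With I3P it read 10.36, 9.14, 9.41 and 8.92, and the combination read 9.77, 9.09, 9.18 and 8.94. RECK, a membrane-anchored MMP inhibitor, was 0.12 higher with SR1 than with DMSO, TIMP4 differed by 0.12, TIMP1 by -0.03 (-0.19 for I3P against DMSO, -0.15 without the I3P array of replicate 1) and TIMP2 by less than 0.01 in size (-0.0025).

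For the 8 ADAMs all differences were small. Their differences between SR1 and DMSO ran from -0.14 (ADAM10, the main Notch and cadherin sheddase) to 0.08 (ADAM9), and between the combination and SR1 from -0.18 (ADAM19) to 0.15 (ADAM22). ADAM17, which sheds TNF and EGF-receptor ligands, differed by 0.03 and -0.09 in these comparisons. ADAM12, ADAM15 and ADAM23 stayed within -0.11 to 0.06 in both. None was called, and none had groups that did not overlap.

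Of the cathepsins, CTSK, the collagen-degrading cysteine protease of osteoclasts, read 10.49, 10.36, 10.47 and 10.10 with DMSO and 10.65, 10.92, 10.63 and 10.26 with SR1. With I3P it read 10.41, 10.51, 10.20 and 10.13, and with both compounds 10.72, 10.43, 10.41 and 9.85. SR1 was above DMSO in 4 of 4 replicate numbers, by 0.26 on average, and the groups overlapped. CTSB, a lysosomal protease, differed by 0.07. Neither passed the test, with or without the replicate number as a block.

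**Figure D3:**
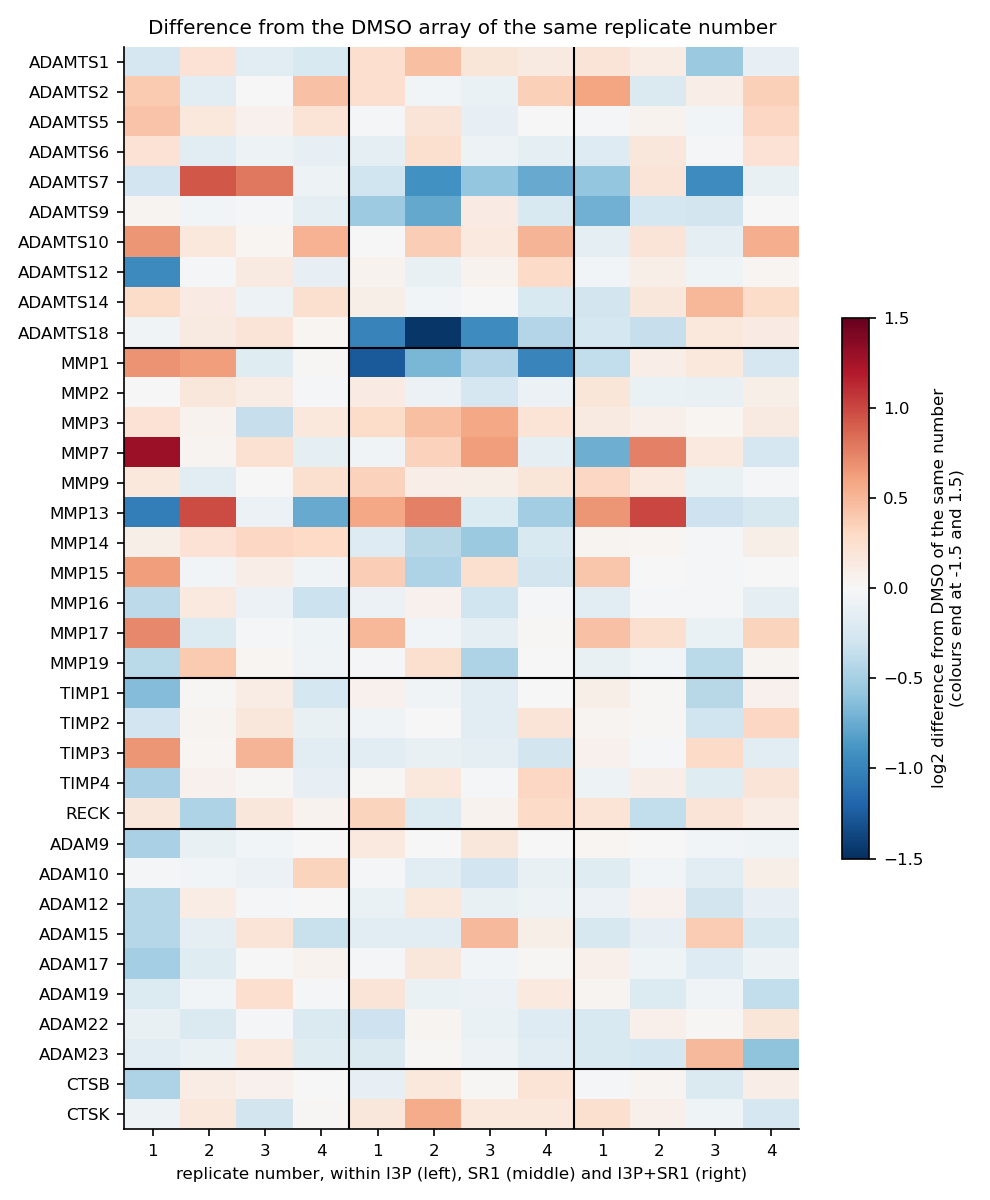
Heat map of the log2 difference between each treated array and the DMSO array of the same replicate number, with the 36 genes in rows by class and the 12 treated arrays in columns by group; the colour scale ends at 1.5 on either side. The ADAMTS18 and MMP1 rows are negative in all 4 SR1 columns, and the MMP3, ADAMTS1 and CTSK rows are positive in all 4.

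Over replicate numbers, 4 members were higher in 4 of 4 with SR1 than with DMSO (MMP3, MMP9, ADAMTS1 and CTSK), as were 9.24% of all genes, and 6 were lower in 4 of 4 (MMP1, MMP14, TIMP3, ADAM10, ADAMTS7 and ADAMTS18), as were 8.12%. For the combination against SR1, 5 were higher in 4 of 4 (MMP1, MMP14, TIMP3, ADAM22 and ADAMTS18; 8.75% of all genes) and 4 were lower (MMP3, TIMP4, ADAM9 and ADAMTS1; 10.9%). These comparisons share the SR1 arrays. For I3P against DMSO and the combination against I3P the replicate numbers were not taken as paired, so their signs are a description only. For I3P against DMSO, MMP14, ADAMTS5 and ADAMTS10 were higher in 4 of 4 and ADAM9 and ADAM22 lower in 4 of 4, beside 6.1% and 6.88% of all genes. For the combination against I3P, RECK and ADAM15 were higher in 4 of 4 (5.8% of all genes) and MMP14 and ADAMTS7 lower (6.18%), and for the combination against DMSO, MMP3 was higher (4.96%) and MMP16 and ADAMTS9 lower (6.43%). In these last comparisons 0 members had groups that did not overlap, beside 1.35% and 1.22% of all genes.

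In the other contrasts no member passed. For I3P against DMSO, where 0 of 14040 genes were called (0.0%; limma), 1 member, ADAMTS10, was higher at an unadjusted p under 0.05, as were 1.71% of all genes (240 genes were higher and 155 lower). For the combination against I3P, where 0.0% were called, ADAMTS7 was lower at that p, as were 1.75% of all genes (246 genes were lower and 220 higher). The combination against DMSO also called 0.0% and gave 0 members at an unadjusted p under 0.05, beside 194 genes or 1.38%. The interaction called 0.00712% of genes, and the members with an unadjusted p under 0.05 there were ADAMTS18 and ADAMTS10 (-0.48, unadjusted p = 0.046), beside 2.02% of all genes. Without the I3P array of replicate 1 the ADAMTS10 value was -0.40 (unadjusted p = 0.09).

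The smallest unadjusted p values for the combination against DMSO belonged to ADAMTS9, MMP17 and ADAMTS2. ADAMTS9 read 7.60, 7.24, 7.47 and 7.50 with DMSO and 6.87, 6.98, 7.20 and 7.50 with both, a difference of -0.32 (unadjusted p = 0.13). MMP17, a membrane-anchored MMP, read 7.02, 7.52, 7.39 and 7.39 with DMSO and 7.45, 7.76, 7.30 and 7.72 with both, a difference of 0.23 (unadjusted p = 0.13). All of these groups overlapped. ADAMTS2 read 6.58, 7.33, 7.02 and 6.70 with DMSO and 7.17, 7.11, 7.13 and 7.05 with both, a difference of 0.21 (unadjusted p = 0.17).

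The catalytically inactive ADAM22, a receptor for LGI proteins, read 7.57, 7.73, 7.57 and 7.91 with DMSO, 7.46, 7.51, 7.54 and 7.70 with I3P, 7.26, 7.78, 7.47 and 7.72 with SR1, and 7.34, 7.80, 7.59 and 8.09 with both. I3P arrays were lower than DMSO arrays of the same number in 4 of 4, and arrays with both were higher than SR1 arrays in 4 of 4. The interaction was 0.29 (unadjusted p = 0.21, adjusted p = 1.0, limma), or 0.26 without the I3P array of replicate 1, and did not pass.

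For most of these genes the replicate number, not the compound, held the larger share of the variance over the 16 arrays. The median share between replicate numbers was 46.0% over the 36 genes (34.6% over all genes) and the median share between groups was 13.5% (14.2% over all genes). The share between numbers was the larger in 31 of 36 genes (86.1%), as in 71.4% of all genes. It reached 90.2% for ADAMTS5, 83.8% for MMP3, 83.7% for ADAM9, 82.0% for ADAMTS6, 79.9% for TIMP2 and 71.5% for MMP1.

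These genes did not share an order over the replicate numbers. The means of replicates 1 to 4 were 9.45, 8.82, 7.58 and 9.44 for MMP1 and 12.3, 11.6, 11.4 and 12.5 for MMP3, both lowest in replicate 3. They were 9.26, 8.97, 8.77 and 9.80 for ADAMTS5, and 9.76, 9.80, 9.83 and 9.17 for TIMP2, which was lowest in replicate 4. In 5 genes the groups held the larger share: ADAMTS18 (84.7% against 1.72%), MMP14 (60.4% against 31.0%), ADAMTS7 (52.6% against 3.35%), ADAMTS10 (31.6% against 17.9%) and MMP17 (18.9% against 14.02%).

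The patterns most like that of ADAMTS18 were sought over all genes by Pearson correlation across the 16 arrays after the mean of each replicate number had been subtracted, as a description. The 8 highest were STC2 (0.958), PLEKHG4B (0.955), IL1B (0.951), ALDH1A3 (0.950), SERPINB2 (0.949), NPAS2 (0.944), TBC1D8 (0.944) and CLDND1 (0.941). Among the members MMP14 came first (0.86, rank 63 of all genes), followed by MMP1 (0.79, rank 156) and ADAMTS7 (0.63, rank 478). The most negative were MMP3 (-0.81), CTSK (-0.80), ADAMTS1 (-0.72) and MMP9 (-0.62). All 16 points share the same arrays and groups.

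**Figure D4:**
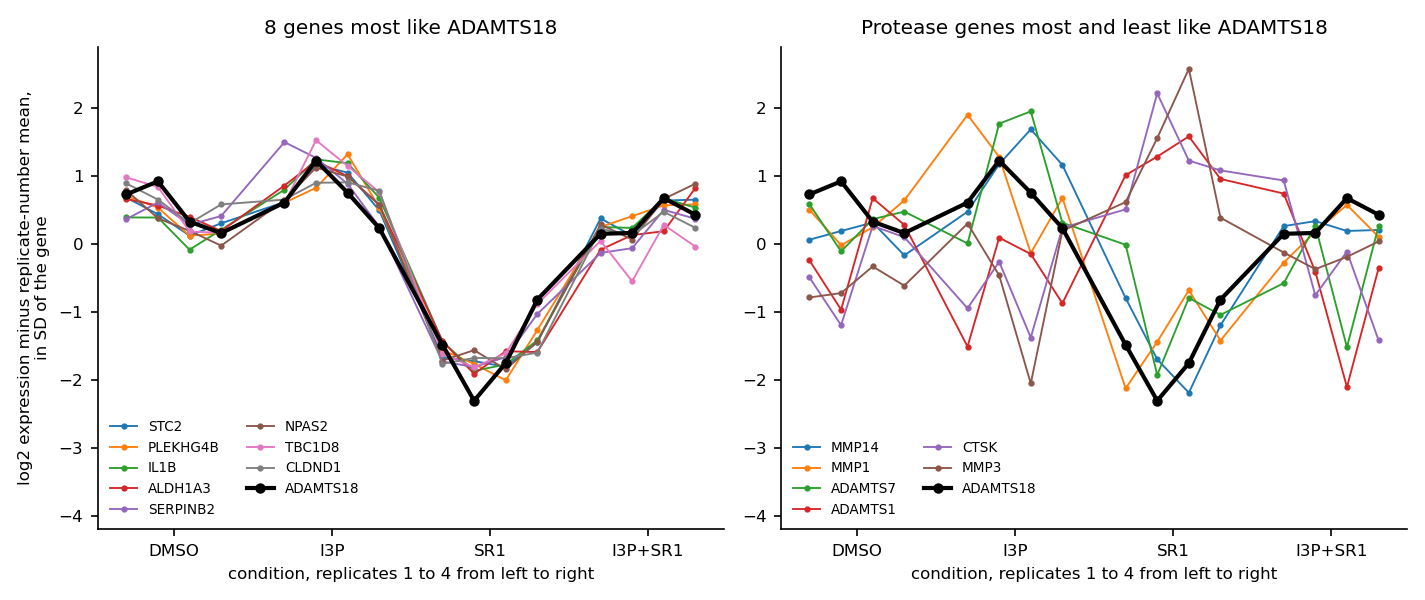
Signal on the 16 arrays, by group, after removal of each replicate number's mean and scaling to SD units (vertical axis), for ADAMTS18 with the 8 genes most like it (left) and with MMP14, MMP1, ADAMTS7, ADAMTS1, CTSK and MMP3 (right); lines only join the points of a gene. The left-hand genes were chosen for likeness to ADAMTS18 on these same arrays, so their common drop on the SR1 arrays follows from that choice. On the right, MMP3, CTSK and ADAMTS1 lie above the other genes on the SR1 arrays.

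A wider list of 86 genes of proteolysis that are no members (other MMPs, ADAMs, ADAMTS and ADAMTS-like genes, cathepsins, cystatins, the plasminogen system and proprotein convertases) had 63 measured. Of these 0 were called in each of the 6 contrasts (limma); at an unadjusted p under 0.05 there were 2 for SR1 against DMSO (2.93% of all genes), 3 for the combination against SR1 (3.7% of all genes), 4 for I3P against DMSO (2.81%), 4 for the combination against I3P (3.32%), 1 for the combination against DMSO (1.38%) and 2 for the interaction (2.02%). Their median change was 0.0012 for SR1 against DMSO and 0.029 for the combination against SR1. The counts for I3P against DMSO, the combination against I3P and the interaction include the I3P array of replicate 1, which stood apart.

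SERPINB2, the plasminogen activator inhibitor PAI-2, read 11.74, 11.05, 10.89 and 12.66 with DMSO and 10.08, 9.12, 9.34 and 11.52 with SR1. With both compounds it read 11.35, 10.51, 11.06 and 12.63. Each SR1 array was below the DMSO array of its number, and the groups overlapped. The differences were -1.57 (SE 0.54) between SR1 and DMSO and 1.37 between the combination and SR1; they passed with the replicate number as a block (adjusted p = 0.0048 and 0.015, limma), where 0.321% of all genes were called in each comparison, and not without it. The pair of genes of the list with the smallest p values held, beside SERPINB2, CTSL1, a lysosomal cathepsin, for SR1 against DMSO (-0.34, adjusted p = 1.0) and CSTB, a cystatin, for the combination against SR1 (0.27, adjusted p = 1.0). It was HPSE (-0.46) and CTSW (-0.32) for I3P against DMSO, MMP28 (0.61) and CST6 (-0.47) for the combination against I3P, and ADAM28 (-0.48) and HPSE (0.47) for the interaction. It was CTSW (-0.31) and ADAM32 (0.37) for the combination against DMSO, of which ADAM32 had an unadjusted p = 0.063. Apart from SERPINB2, none of these passed with or without the block. The differences for I3P against DMSO, the combination against I3P and the interaction include the I3P array of replicate 1. They are not given without it.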

How the data were processed

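RNA of 16 U-87MG cultures (100 ng total RNA each) was labelled with biotin and hybridised to Affymetrix arrays, per the labels' protocols. The deposited values are log2 signals that the authors made with RMA in oligo, per the submitters' processing notes; versions, genome build and any row filter stay unstated (not given in the sources used here). Of 16510 rows, 14096 carried 1 symbol in the platform annotation, 795 several and 1619 none; the row with the highest mean stood for each of 14040 genes.

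Limma 3.58.1 in R 4.3.3 was run on the 16 arrays together, with group means as coefficients (lmFit, eBayes), for 5 differences and their interaction, with Benjamini-Hochberg adjustment over all genes, two-sided, at an adjusted p under 0.05; it was tested on simulated data. Levels of different genes are not compared as RNA amounts. Per comparison, values on every array are given for members that pass, or for the 3 with the smallest p; every ADAMTS gene and the extremes of each class are named. Members, lists and tests were chosen with earlier results of these data known.

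Same-numbered arrays deviated together from their group means for SR1 against DMSO (r 0.30 to 0.52), the combination against SR1 (0.37 to 0.65) and the combination against DMSO (0.22 to 0.52). These numbers were taken as paired from the data. For I3P against DMSO (replicate 1, -0.07) and the combination against I3P (-0.09 and 0.07 in replicates 1 and 3) they were not. The other replicates there had r of 0.25 to 0.51 and of 0.33 and 0.55. Signs within replicate numbers in these comparisons, and in the interaction, which uses I3P against DMSO, are a description only.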

Additional observations from a re-analysis of the deposited data

Results flagged for a closer look

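A gap between the highest or lowest array of a group and the nearest other array passed Dixon's 95% limit for 4 samples in 8 of 144 sets of gene and group, where chance gives about 1 in 20, or 7.2. MMP13 read 5.57 on the I3P array of replicate 1, below 6.72 to 6.83 on the other I3P arrays, and MMP17 read 7.74 on the same array, above 7.32 to 7.37. MMP14 read 9.69 on the SR1 array of replicate 1, below 9.77 to 9.79. The other 5 sets concern replicate 4. TIMP2 read 9.08 there with DMSO, below 9.78 to 9.90, and 9.27 with SR1, below 9.74 to 9.79. ADAM9 read 10.66 with SR1, below 11.38 to 11.50, and ADAM10 read 9.91 with SR1, below 10.31 to 10.38. ADAM15 read 8.02 with both compounds, below 8.39 to 8.44.

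ADAM22 was flagged by the signs of its I3P differences. Without SR1 they were lower in 4 of 4 replicate numbers, as in 6.88% of all genes, and with SR1 higher in 4 of 4, as in 8.75%. The share of all genes with both was not counted, and ADAM22 is 1 of 36 members looked at. The test of the difference between these I3P responses did not pass (0.29 log2 units, unadjusted p = 0.21, adjusted p = 1.0, limma).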

How the results depend on the processing

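Of the values for members called, ADAMTS18 and the wider proteolysis list under each alternative, 291 were unchanged, 13 no longer passed, 19 counts moved and 4 changed sign. Unchanged means the same direction and side of the threshold for ADAMTS18. For counts it means an equal or close count, which includes counts of 0 that stayed 0 where nothing was called. With single arrays left out, the ADAMTS18 call held in 15 of 16 fits for SR1 against DMSO and 10 of 16 for the combination against SR1. Those fits include ones that left out an array of a group outside the comparison. All 6 losses for the combination against SR1 came from leaving out an array of the groups compared. Of those arrays, only I3P+SR1 replicate 1 and SR1 replicate 4 could be left out without losing the call. In the main fit ADAMTS18 alone was called for SR1 against DMSO and for the combination against SR1, and no member was called in the other contrasts. In those comparisons with a call, the count was 0 over the SLI arrays only, over the SMI arrays only and with only the groups compared in the fit. It was also 0 without the lowest 20% of genes, a filter that removes ADAMTS18 itself. The count was 0 to 1 when single arrays were left out. It was 2 with the replicate block and without the I3P array of replicate 1, a setting added after seeing the data. For SR1 against DMSO, ADAMTS18 changed by -1.23 over SLI arrays (adjusted p = 0.25, limma), -0.69 over SMI arrays (adjusted p = 1.0), -0.96 with only the groups compared (adjusted p = 0.069) and -1.07 to -0.87 when single arrays were left out. For the combination against SR1 it changed by 0.93 (SLI, adjusted p = 1.0), 0.83 (SMI, adjusted p = 0.64), 0.88 (groups compared only, adjusted p = 0.067) and 0.81 to 0.98 with single arrays left out. It changed sign, at sizes well inside the interval, over the SMI arrays for the combination against I3P (0.027) and against DMSO (0.14), without I3P replicate 2 for I3P against DMSO (-0.034; range over single arrays left out -0.03 to 0.17), and without DMSO replicate 2 for the combination against DMSO (0.0087; range -0.15 to 0.01). For the combination against I3P the range was -0.24 to -0.05, and for the interaction 0.71 to 0.92. Fewer samples were fitted in the settings by title and by group; the cause of the other changes was not tested.

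With the replicate block, ADAMTS18 kept its calls (adjusted p = 0.012 for SR1 against DMSO and 0.026 for the combination against SR1), the count of members called was unchanged at 1 in each, and the wider list had 1 call, SERPINB2, in each; calls over all genes rose from 23 to 45 and from 16 to 45 (0.321% of genes each). Over all genes, calls for SR1 against DMSO were 4 (SLI), 1 (SMI), 39 (array weights), 6 (groups compared only) and 9 to 25 with single arrays left out, the lowest without DMSO replicate 2, and also 13 without DMSO replicate 1 or SR1 replicate 3 and 15 without SR1 replicate 1. For the combination against SR1 they were 1 (SLI), 1 (SMI), 27 (title series as a block), 7 (groups compared only) and 10 to 18, the lowest without SR1 replicate 2 or I3P+SR1 replicate 3. Over the SLI arrays the combination against I3P gave 1 call and the interaction 0. With 4 arrays a group and the low signal of ADAMTS18, array number limits the precision.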

Other observations

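On the I3P array of replicate 1, 14 of the 36 members read outside the range of the other 15 arrays (MMP1, MMP7, MMP13, MMP15, MMP16, TIMP3, TIMP4, ADAM12, ADAM17, ADAM19, ADAMTS9, ADAMTS10, ADAMTS12 and CTSB), beside 41.2% of all genes (5779 of 14040). MMP1 read 10.36 there, above every other array, and ADAMTS12 read 7.96, below every other array. ADAMTS18 and MMP14 read 7.37 and 9.97 there, inside the range of the other arrays.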
